A study of Mus musculus with 6 samples.

Results

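The genes described here encode the insulin-like growth factor (IGF) system of 3T3-L1 cells: the ligands Igf1 and Igf2, the receptors Igf1r and Igf2r, and the binding proteins Igfbp2 to Igfbp7. They were chosen by name, as the 10 rows of the gene count table that carry these symbols, out of 24421 genes listed. Of the 10, 7 passed the filter on low counts and were tested, and Igf2, Igfbp2 and Igfbp5 did not. 3T3-L1 is a mouse embryonic fibroblast line used as a preadipocyte model, grown here undifferentiated, in log phase, in high-glucose medium with fetal bovine serum, which itself brings growth factors. Wild-type cells (WT, 3 libraries) were compared with cells carrying a knockout of Ube3d (Ube3d-KO, 3 libraries), and the labels name no further treatment of either. Ube3d encodes a ubiquitin ligase. Whether the knockout cells are 1 clone, how they were made and whether the biological replicates were separate cultures is not stated in the labels used here, so p-values measure only the spread between these samples.

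IGF1 and IGF2 are secreted peptides that promote growth and survival through IGF1R, a receptor tyrosine kinase related to the insulin receptor. IGF2R, which is also the cation-independent mannose 6-phosphate receptor, carries lysosomal enzymes and takes up IGF2 for degradation. IGFBPs bind IGFs outside the cell, and proteases such as pappalysins release the bound ligand. IGF signalling is known to be needed for 3T3-L1 cells to become fat cells.

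Total counts per library lay between 23767181 and 29389480, and Ube3d, listed as Ube2cbp, was 3.62-fold lower in the knockout (1.89 ± 0.31 CPM against 6.79 ± 0.80 CPM, mean ± SD, n = 3; the part of the gene removed is not given). CPM are counts scaled to library size and composition by the TMM method, and changes are given as knockout relative to wild type. The ribosomal RNA precursor Rn45s took 7.28% to 8.91% of the counts in wild type and 9.68% to 10.2% in the knockout, and the direction and call of all 7 tested members were the same when it was left out. All 12 fibroblast and preadipocyte markers were expressed, 9 falling and 2 rising (median log2 −0.55), where 31.2% of all tested genes fell and 30.3% rose. Their summed level was 15764 to 16216 CPM in wild type and 13778 to 14133 CPM in the knockout. Other lists held 8 markers each. Of the epithelial markers none passed the count filter (sums of 0.471 to 0.707 CPM in wild type, 0.320 to 0.734 in the knockout), with Epcam, Krt18 and Cldn3 at 0. Of the endothelial markers only Vwf was tested, and it rose (sums of 0.600 to 1.08 CPM, then 1.46 to 2.53), with Emcn and Tie1 at 0. Of the skeletal muscle markers Des and Acta1 fell (sums of 1.93 to 2.79 CPM, then 0.432 to 1.03), with Myod1, Myog, Myf5 and Pax7 at 0. Of 4 macrophage markers tested, Cd68 rose and Lyz2 fell (sums of 16.1 to 16.8 CPM, then 15.98 to 16.27), with Adgre1 and Tyrobp at 0; the Lyz2 fall was not called with DESeq2, without wild-type replicate 3 or without knockout replicate 3, and 2 markers fell without wild-type replicate 2. Of the mature adipocyte markers, Lpl and Fabp4 fell, their list summing to 127 to 136 CPM in wild type and 51.9 to 53.5 CPM in the knockout, while Lep and Retn had no count and Adipoq had 1 count per genotype. The part of these marker changes in the results below was not tested, and in such bulk samples fewer cells of a type and less RNA per cell cannot be told apart.

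The makeup of the IGF system differed between the genotypes in both directions. Igfbp3 was almost lost, Igf1 was 1.99-fold lower and Igfbp6 1.34-fold lower. Igf2r rose 1.42-fold, Igf1r 1.2-fold and Igfbp4 1.56-fold, while Igfbp7, the most strongly expressed binding protein, differed by less than its error. Thus 3 of the 7 tested members were higher and 3 lower (edgeR quasi-likelihood test, Benjamini-Hochberg adjusted p under 0.05), in a comparison in which 61.4% of all 12947 tested genes were called, 30.3% as higher and 31.2% as lower. The groups did not overlap for those 6 members, as for 64.3% of all tested genes. The median log2 change of the 7 was −0.02, against 0.004 for all tested genes.

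**Figure D1:**
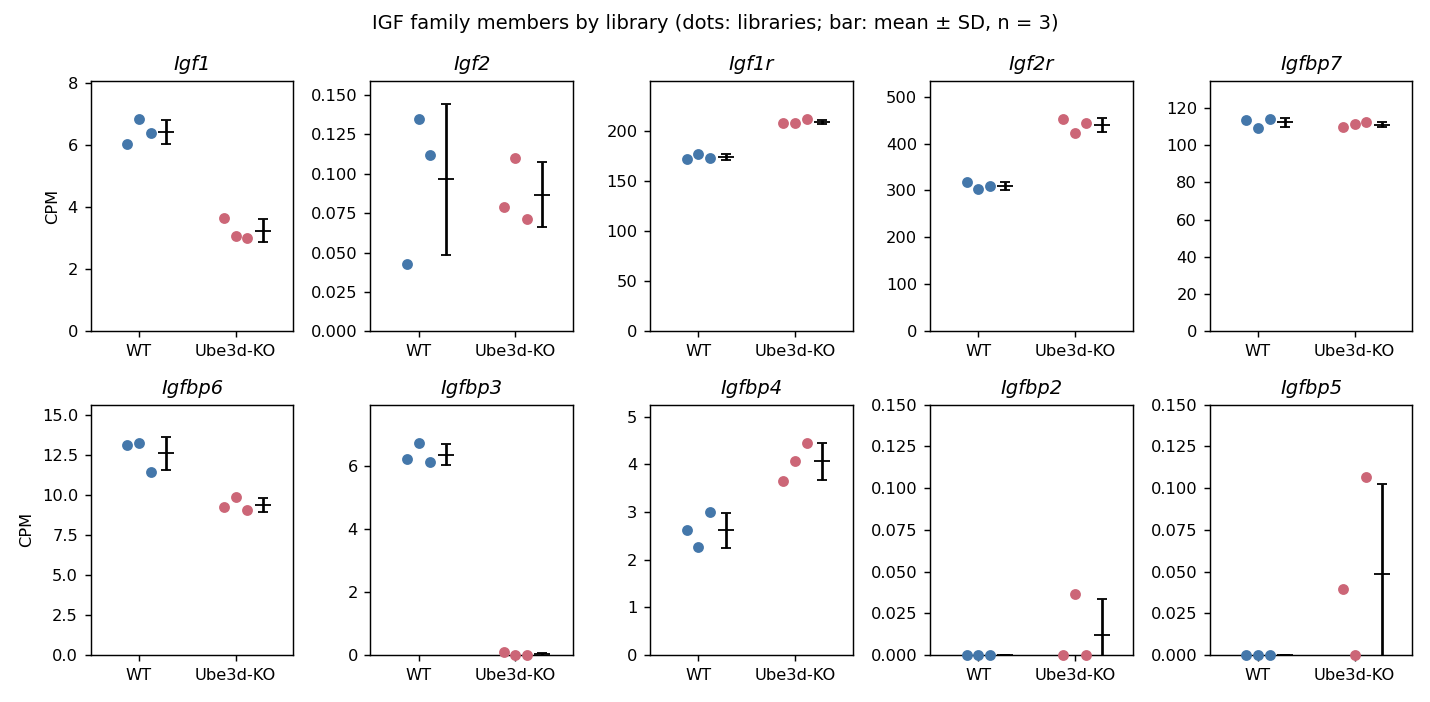
Level of each of the 10 members in CPM (y axis, linear, starting at 0, scaled separately per panel) in the 3 wild-type (blue) and 3 knockout (red) libraries, with the mean ± SD beside them. Igf1, Igfbp3 and Igfbp6 lie lower and Igf1r, Igf2r and Igfbp4 higher in every knockout library, while Igf2, Igfbp2 and Igfbp5 stay under 0.15 CPM.

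The promoters of the binding protein genes with the largest fall and the largest rise are shown because both genes lie on chromosome 11 and moved in opposite directions. They are the 250 bases before the RefSeq start of each gene in GRCm38.p6, chr11:7213924-7214173 on the minus strand for Igfbp3 and chr11:99040994-99041243 on the plus strand for Igfbp4, written 5′ to 3′ with the TATA-box letters in capitals.
Igfbp3: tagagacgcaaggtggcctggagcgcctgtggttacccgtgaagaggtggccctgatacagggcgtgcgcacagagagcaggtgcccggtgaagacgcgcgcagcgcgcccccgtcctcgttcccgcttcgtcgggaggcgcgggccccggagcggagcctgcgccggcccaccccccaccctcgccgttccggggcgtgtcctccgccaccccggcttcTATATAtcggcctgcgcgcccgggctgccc
Igfbp4: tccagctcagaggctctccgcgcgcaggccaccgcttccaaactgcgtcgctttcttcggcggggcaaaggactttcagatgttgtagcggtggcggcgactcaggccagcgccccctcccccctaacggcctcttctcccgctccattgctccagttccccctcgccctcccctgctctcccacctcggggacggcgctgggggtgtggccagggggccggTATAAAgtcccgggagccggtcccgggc
In Igfbp3 the letters TATATA span positions −30 to −25 and in Igfbp4 the letters TATAAA span −28 to −23, where −1 is the base before the start. Searched on both strands, one or the other of these strings was present in 15.6% of 32851 promoter windows of this length and in 3 of the 14 windows of the members, the other being Igfbp6, where it is on the opposite strand. The Igfbp3 window held 32 CpG dinucleotides, more than 95.4% of all windows, and the Igfbp4 window 22. Those of Igf1r, Igf2r and Igfbp7 held 42, 27 and 26, and those of Igf1 and Igfbp6 only 5 and 7, against a median of 6 over all windows. The Igf1 window, chr10:87860861-87861110, lies before a RefSeq start inside the counted gene, which begins at 87859056. The GC-box string GGGCGG was in 6 of the 14 member windows and in 32.7% of all. These matches describe the letters only. CpG-rich windows belonged both to the gene that was nearly lost and to genes that rose.

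Igf1 was the only ligand with more than a few counts. The gene (chromosome 10, 87859056 to 87937047, plus strand, GRCm38, 6 exon blocks) had 141, 203 and 171 counts in the wild-type libraries and 93, 84 and 84 in the knockout. That is 6.04, 6.83 and 6.39 CPM in wild type and 3.66, 3.08 and 2.99 CPM in the knockout. All knockout libraries lay well below all wild-type ones, a log2 change of −0.99 (SE 0.13, edgeR adjusted p = 8.6e-10). Only 8.17% of the other 612 tested genes of chromosome 10 changed by more in either direction. Igf2, the fetal growth ligand, had 1, 4 and 3 counts in wild type, against 2, 3 and 2 in the knockout (0.0965 ± 0.048 CPM and 0.0866 ± 0.021 CPM), too few to compare. At its locus on chromosome 7, the imprinted noncoding RNA H19 had 2 counts in wild type and 0 in the knockout, Igf2os had 2 and 1, and the insulin gene Ins2 had none.

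Growth hormone acts through its receptor, JAK2 and STAT5 to induce Igf1, and SOCS2 is a STAT5-induced feedback inhibitor. Of 8 genes on this list, all tested, 5 fell and 1 rose (median log2 −0.25), where 31.2% and 30.3% of all tested genes did. The receptor gene Ghr fell from 77.0 ± 0.38 to 37.9 ± 2.5 CPM (log2 −1.02, SE 0.05, edgeR adjusted p = 2.4e-31) and Socs2 from 14.7 ± 0.56 to 7.18 ± 0.75 CPM (log2 −1.03, SE 0.09). These 2 falls were about as large as that of Igf1. The transcription factor genes Stat5b and Stat5a fell less, by 0.27 (SE 0.05) and 0.23 (SE 0.06) on the log2 scale, as did Socs3 by 0.30 (SE 0.06). Socs1, another inhibitor of the family, rose from 7.01 ± 0.27 to 13.8 ± 0.78 CPM. The kinase gene Jak2 (log2 −0.09, edgeR adjusted p = 0.086) and the STAT5 target Cish (log2 −0.01, adjusted p = 0.97) did not pass the threshold.

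**Figure D2:**
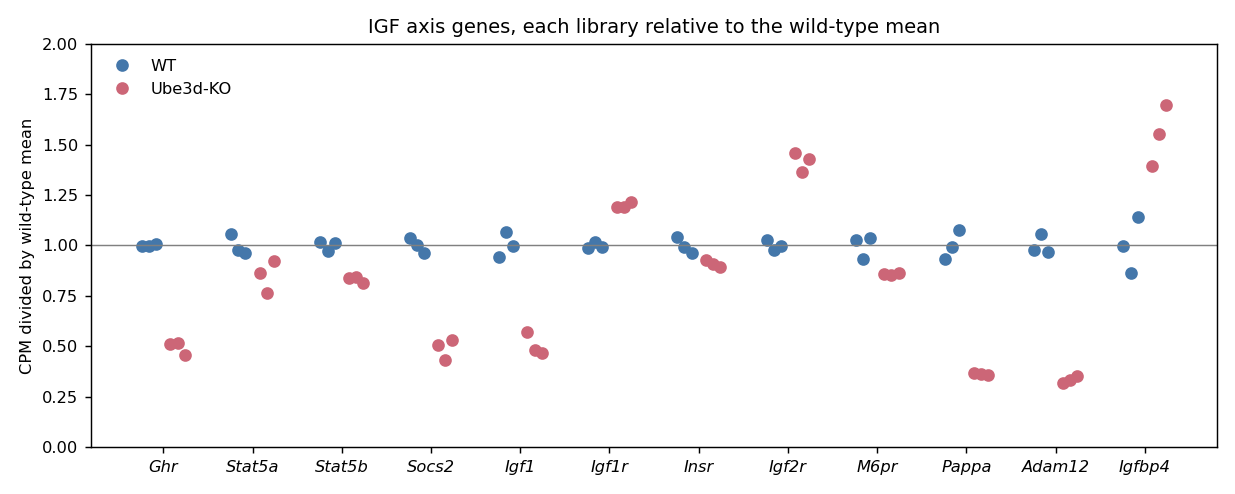
CPM of each library divided by the wild-type mean of the gene (y axis, linear) for 12 genes of the IGF axis, wild type in blue and knockout in red. Ghr, Socs2 and Igf1 lie near 0.5 in the knockout and Pappa and Adam12 lower still, while Igf1r, Igf2r and Igfbp4 lie above 1 in every knockout library.

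Both receptors rose, and they were measured with the largest counts and the smallest error among the called members. Igf1r (chromosome 7, 67952257 to 68233667, plus strand, 21 exon blocks) stood at 171.9, 176.9 and 172.4 CPM in wild type and 207.1, 207.3 and 211.4 CPM in the knockout. The knockout libraries differed from each other by far less than from wild type (log2 0.26, SE 0.03, edgeR adjusted p = 6.8e-12). Igf2r (chromosome 17, 12682406 to 12769706, minus strand, 48 exon blocks) stood at 318.3, 302.4 and 308.4 CPM in wild type and 451.8, 423.3 and 442.7 CPM in the knockout (log2 0.50, SE 0.03, adjusted p = 4.1e-24). Its rise was among the 17.4% largest changes on chromosome 17, where the other tested genes had a median of −0.03. The Igf1r rise was modest beside its own chromosome, since 38% of 991 other tested genes there changed by more.

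Insr, the insulin receptor, with which IGF1R forms hybrid receptors, went the other way, from 65.8 ± 2.7 to 59.8 ± 1.2 CPM (log2 −0.14, SE 0.04, edgeR adjusted p = 0.0037). Per exon length, the ratio of Igf1r to Insr was 1.96, 2.11 and 2.13 in wild type, against 2.65, 2.72 and 2.81 in the knockout. M6pr, the cation-dependent receptor for the same lysosomal tag that IGF2R binds, fell from 151 ± 8.5 to 129 ± 0.71 CPM. The length-scaled ratio of Igf2r to M6pr was 0.511, 0.534 and 0.491 in wild type, against 0.871, 0.818 and 0.847 in the knockout. Igf2r relative to Igf1r also shifted, from 2.39 ± 0.096 to 2.83 ± 0.094. None of the 3 ratios overlapped between genotypes, and each gave p = 0.1 in a two-sided exact permutation test (0.1 adjusted over the 3), the smallest value that 3 against 3 libraries allow. The ratios to Insr and to M6pr each set a gene that rose over a gene that fell, so they add no evidence beyond the single-gene results.

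Of 10 tested genes of the mannose 6-phosphate route of tagging and sorting, 4 fell and 1 rose (median log2 −0.11), a smaller share called than the 61.4% of all genes. The falls were M6pr, the retromer genes Vps35 (log2 −0.23, SE 0.03) and Vps26a (log2 −0.20, SE 0.03), which return the receptor from endosomes, and the adaptor gene Gga2 (log2 −0.15, SE 0.04). Another adaptor gene, Gga1, rose by 0.18 (SE 0.05), and without wild-type replicate 2 the list had 2 rising genes. Airn, the antisense noncoding RNA that silences the paternal copy of Igf2r in mouse, starts inside the Igf2r gene on the other strand and shares no exon base with it. The strand setting of the counting is not given, and the part of reads from Igf2r introns in the Airn count was not tested. Airn stood at 1.31 ± 0.40 CPM in wild type and 2.02 ± 0.58 CPM in the knockout with overlapping groups (log2 0.60, edgeR adjusted p = 0.022). That call was lost without wild-type replicate 1 (adjusted p = 0.17), without knockout replicate 1 (0.13) or 3 (0.14), and with DESeq2 (0.074).

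**Figure D3:**
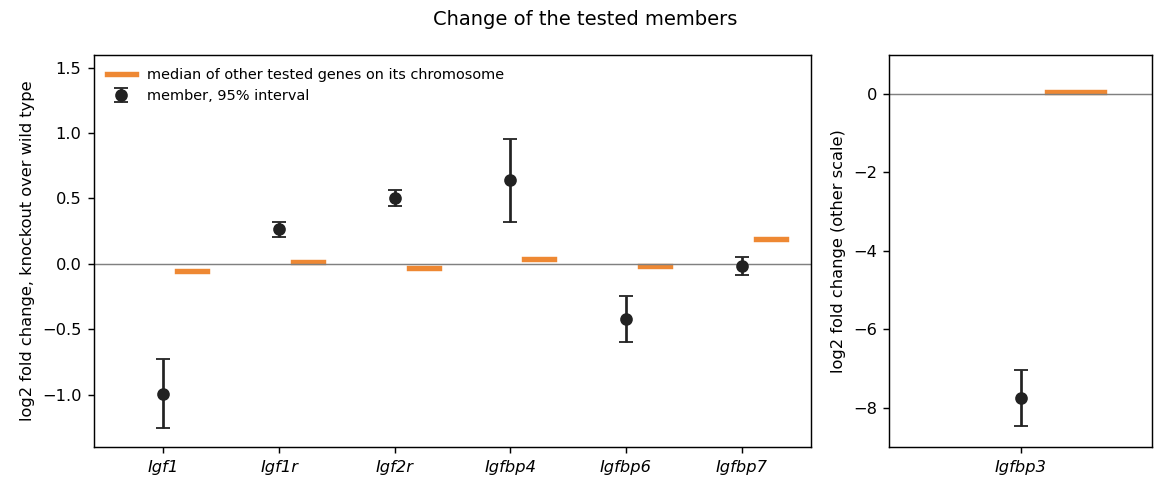
Log2 fold change (y axis, knockout over wild type) of the 7 tested members with the 95% interval of the edgeR fit, and in orange the median of the other tested genes on the same chromosome. Igfbp3 has its own panel and scale, and its fitted interval is narrower than its counting error alone allows. Igfbp7 lies close to 0 although its chromosome has a raised median.

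Igfbp3, the main IGF carrier of blood plasma and also a growth inhibitor of its own, was the member with the largest change. The gene (chromosome 11, 7206091 to 7213923, minus strand, 5 exon blocks) had 145, 200 and 164 counts in wild type (6.21, 6.73 and 6.13 CPM). The knockout libraries had 2, 0 and 0. It therefore passed the count filter through wild type alone. With library size taken into account the ratio of knockout to wild type was 0.00388 (exact 95% binomial interval 0.000469 to 0.0141, counting error only). The fitted log2 change of −7.76 (edgeR adjusted p = 2.4e-30) depends on the prior count, as do its SE of 0.36 and its 95% interval. That fitted interval, −8.47 to −7.04, is narrower than the counting error of 2 knockout counts alone allows. Among all falls the fitted change ranked as number 6. No other tested gene of chromosome 11 changed as much. Igfbp1, 3.55 kb away on the other strand, had no count in any library, and Tns3, 1218 kb away on the other side, fell by only 0.16 (SE 0.03) on the log2 scale.

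Igfbp4, which holds IGFs away from their receptor until it is cleaved, rose. The gene (chromosome 11, 99041260 to 99052643, plus strand, 4 exon blocks) had 61, 67 and 80 counts in wild type, against 93, 111 and 125 in the knockout. This corresponds to 2.61, 2.26 and 2.99 CPM against 3.66, 4.07 and 4.45 CPM, without overlap (log2 0.64, SE 0.16, edgeR adjusted p = 3.6e-04). The counts are low, and the 95% interval of the log2 change ran from 0.32 to 0.95. Its neighbour Top2a, 17.1 kb away, fell by 0.20 (SE 0.03), and Tns4, 13.0 kb away, had 6 counts in wild type and 13 in the knockout.

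Igfbp6, known for its preference for IGF2, fell. The gene (chromosome 15, 102144186 to 102149512, plus strand, 4 exon blocks) stood at 13.1, 13.3 and 11.4 CPM in wild type and 9.28, 9.87 and 9.04 CPM in the knockout (log2 −0.43, SE 0.09, edgeR adjusted p = 2.7e-05). The lowest wild-type library was still above the highest knockout library. Spryd3, 7.97 kb away, had a log2 change of 0.02 that did not pass the threshold (adjusted p = 0.71), and Soat2, which starts 1.06 kb beyond Igfbp6 on the same strand, had 9 counts in each genotype.

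Igfbp7, a secreted matrix-associated relative that binds IGFs only weakly, was level. It stood at 113.7, 109.5 and 114.0 CPM in wild type and at 109.7, 111.2 and 112.3 CPM in the knockout. The groups overlapped, and the log2 change was −0.02 with a 95% interval of −0.08 to 0.05 (edgeR adjusted p = 0.70). The gene lies on chromosome 5 (77349240 to 77408045, minus strand), where the other 803 tested genes had a median log2 change of 0.19, and 96.6% of them had a larger change in either direction. Its exons share 89 bases with Polr2b on the other strand (log2 0.01, adjusted p = 0.70), and no source used here gives the strand setting of the counting.

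Igfbp2 and Igfbp5, neighbours 5.59 kb apart on chromosome 1, were at the limit of detection. Igfbp2 had 1 count in the 6 libraries, in the knockout. Igfbp5 had 0 counts in wild type, against 1, 0 and 3 in the knockout, and the exact 95% interval of its ratio to wild type reached down to 0.652, so that no difference was detectable at this depth. A group without counts allows a level of up to 0.0376 CPM in wild type, taking 3 counts over the 3 libraries as the floor.

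Levels can be set against each other only per length, as RPKM, that is, CPM per kilobase of exon. In wild type the order was Igfbp7 at 92.7 ± 2.1 RPKM, Igf2r at 34.7 ± 0.90, Igf1r at 14.5 ± 0.23, Igfbp6 at 9.79 ± 0.80, Igfbp3 at 2.6 ± 0.13, Igfbp4 at 1.27 ± 0.18 and Igf1 at 0.821 ± 0.051. Neighbours in this order did not overlap between their libraries. Igf2 followed at 0.0228 RPKM. In the knockout the order was Igfbp7 (91.6 ± 1.1 RPKM), Igf2r (49.2 ± 1.6), Igf1r (17.4 ± 0.20), Igfbp6 (7.29 ± 0.33), Igfbp4 (1.96 ± 0.19) and Igf1 (0.415 ± 0.046). The remaining 4, Igfbp3 among them, lay at 0.0204 RPKM or below and could not be ranked. Among all tested genes by RPKM, Igfbp7 stood at percentile 94.8 in wild type and Igf1 at 14.3. In the knockout Igf2r moved from percentile 84.2 to 89.6, Igf1 fell to 7.72 and Igfbp3 dropped from 25.4 to 0.255.

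The summed RPKM of the 6 binding protein genes was 106.3 ± 1.7 in wild type and 100.8 ± 1.2 in the knockout, and Igfbp7 made up 87.1% ± 0.78 and 90.8% ± 0.28 of it. Igfbp3 held 2.45% ± 0.17 of the whole in wild type and 0.0108% ± 0.019 in the knockout, and Igfbp4 1.19% ± 0.16 and 1.95% ± 0.17. Without Igfbp7, the sum of the others was 13.7 ± 0.73 RPKM in wild type and 9.28 ± 0.33 RPKM in the knockout. Igfbp6 held 71.6% ± 2.1 of that smaller pool in wild type and 78.5% ± 1.9 in the knockout. The share of Igfbp3 was 19.1% ± 0.80 in wild type and 0.119% ± 0.21 in the knockout, while that of Igfbp4 was 9.34% ± 1.8 and 21.2% ± 2.0. By summed CPM, without length scaling, the Igfbp3 share of the smaller pool was 29.4% ± 1.0 in wild type and 0.201% ± 0.35 in the knockout. These sums and shares follow from the single-gene values above and were not tested.

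**Figure D4:**
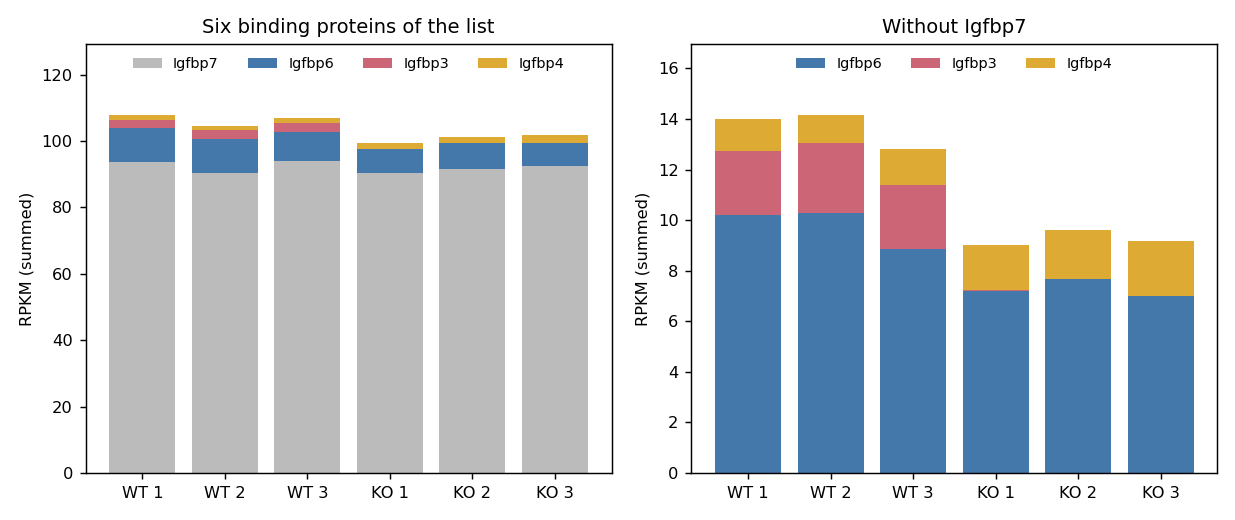
Summed RPKM (y axis, linear) of the binding protein genes in each of the 6 libraries, with Igfbp7 on the left and without it on the right, stacked by gene. Igfbp2 and Igfbp5, at most 0.0276 RPKM in a library, are not drawn. The Igfbp3 layer is present in the 3 wild-type libraries and, in the knockout, a thin line in replicate 1 alone.

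Of 12 listed genes of IGFBP proteases and their inhibitors 8 were tested, of which 3 fell and 1 rose (median log2 −0.28), no larger a share than the 61.4% called among all genes. Without wild-type replicate 3 the count of falls was 5. Pappa, the pappalysin that cleaves IGFBP4, fell from 10.8 ± 0.78 to 3.92 ± 0.045 CPM (log2 −1.47, SE 0.11, edgeR adjusted p = 2.6e-19). Adam12, a metalloprotease that cleaves IGFBP3 and IGFBP5, fell from 26.7 ± 1.3 to 8.92 ± 0.44 CPM (log2 −1.58, SE 0.07). Htra1, a serine protease, fell from 1.85 ± 0.18 to 1.14 ± 0.14 CPM. Pappa2, which cleaves IGFBP3 and IGFBP5, rose from 1.06 ± 0.087 to 2.36 ± 0.28 CPM (log2 1.14, SE 0.22). The pappalysin inhibitor gene Stc1 stood at 2.98 ± 0.56 and 2.31 ± 0.36 CPM (log2 −0.36, edgeR adjusted p = 0.074), and Stc2 had 1 count in all.

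Among non-family receptors and carriers that bind IGFBPs, all 6 tested genes were called, 2 as higher and 4 as lower. Over all tested genes 61.4% were called, 30.3% as higher and 31.2% as lower. Lrp1, an endocytic receptor reported to bind IGFBP3, rose from 1033 ± 36 to 1470 ± 67 CPM (log2 0.51, SE 0.03). Cav1, caveolin, fell from 820.4 ± 19.5 to 467.4 ± 4.3 CPM (log2 −0.81, SE 0.03), and Lrp2 fell from 4.10 ± 0.79 to 1.37 ± 0.33 CPM. Tmem219, described as an IGFBP3 receptor, stood at 5.46 ± 0.37 and 4.35 ± 0.48 CPM (log2 −0.32, edgeR adjusted p = 0.027). The Tmem219 call was lost without wild-type replicate 1 (adjusted p = 0.078) or 3 (0.070), without knockout replicate 1 (0.14) and with DESeq2 (0.076).

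Of the other insulin and IGF family genes, 5 of 13 were tested, with 3 lower and 1, Airn, higher. Among all tested genes 31.2% were lower and 30.3% higher. Airn was no longer called without wild-type replicate 1, knockout replicate 1 or knockout replicate 3, or with DESeq2. The falls were Insr and the mRNA-binding protein genes Igf2bp3, from 178 ± 2.1 to 133 ± 3.2 CPM (log2 −0.42, SE 0.03), and Igf2bp2, by 0.21 (SE 0.03) on the log2 scale. Igf2bp1, at 173 ± 2.3 and 166 ± 3.6 CPM, did not pass the threshold (log2 −0.06, edgeR adjusted p = 0.093). Ins1, Ins2, Insrr, Igfbp1 and Igfbpl1 had no count.

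Downstream of the receptors, the changes were divided. Of 17 tested substrates, adaptors and negative regulators, 6 rose and 4 fell (median log2 0.07), where 30.3% and 31.2% of all tested genes did. Enpp1, an inhibitor of the insulin receptor, rose from 4.19 ± 0.43 to 13.3 ± 0.60 CPM (log2 1.66, SE 0.10, edgeR adjusted p = 2.8e-23), and the inhibitory adaptor gene Grb14 rose from 32.4 ± 1.2 to 48.5 ± 0.93 CPM (log2 0.58, SE 0.05). Irs1, a docking protein of the insulin and IGF1 receptors, fell from 104 ± 2.8 to 75.8 ± 1.0 CPM (log2 −0.46, SE 0.04), and the docking gene Gab1 fell by 0.46 (SE 0.07). Shc1, the adaptor that leads to RAS, rose by 0.40 (SE 0.03). Irs2 did not pass the threshold (log2 0.13, adjusted p = 0.066).

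In the PI3K, AKT and mTOR list 10 of 29 tested genes rose and 5 fell (median log2 0.04), so that 14 were not called. Among all tested genes 30.3% rose and 31.2% fell. The largest fall was that of Deptor, an mTOR inhibitor, from 67.4 ± 2.1 to 29.5 ± 1.0 CPM (log2 −1.19, SE 0.05). Rises were smaller in well-expressed genes: Pik3r1 and Pik3ca, the regulatory and catalytic subunits of PI3K, by 0.46 and 0.37, and the mTOR partner gene Rptor by 0.36. Inpp5d rose by 2.02 (SE 0.39) from only 0.243 ± 0.16 CPM. Akt1 rose by 0.14, and Akt2 did not pass the threshold (log2 0.05, edgeR adjusted p = 0.21). Akt1 lies on chromosome 12, where the median log2 change of the other tested genes was 0.19. The part of that shift in the Akt1 rise was not tested. Without knockout replicate 3 the falls numbered 3.

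In the RAS and ERK list 5 of 15 rose and 4 fell (median log2 0.03), against 30.3% and 31.2% of all tested genes. Spry2, a feedback inhibitor of receptor tyrosine kinases, rose from 51.0 ± 1.5 to 90.1 ± 2.4 CPM (log2 0.82, SE 0.04) and Nras by 0.43 (SE 0.03), while Spry1, of the same family as Spry2, fell by 1.38 (SE 0.29). The rises numbered 3 without wild-type replicate 1 or knockout replicate 3, and the falls 2 without wild-type replicate 1 or knockout replicate 1. Shc1, Pik3ca and Nras lie on chromosome 3, where the median log2 change of the other tested genes was 0.30. The part of that shift in these rises was not tested.

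FOXO factors are held out of the nucleus by AKT, and their list was divided too, with 5 of 17 tested genes higher and 7 lower (median log2 −0.09). Among all tested genes 30.3% were higher and 31.2% lower. Known targets among the falls were Cat, catalase (log2 −0.74, SE 0.05), the pyruvate dehydrogenase kinase gene Pdk4 (log2 −0.75, SE 0.08), Txnip (log2 −0.54, SE 0.08) and the CDK inhibitor gene Cdkn1b (log2 −0.46, SE 0.04). Other targets rose: Bcl6, by 0.31 to 0.40 over the 13 alternatives described below, Pik3ip1, by 0.30 to 0.38, and also Sesn1 and Cited2. The calls of Sesn1, Cited2 and the falling target Gadd45a did not hold under every alternative. Foxo3 itself rose by 0.36 (SE 0.07), whereas Foxo1 (log2 −0.09, edgeR adjusted p = 0.35) and Foxo4 (log2 −0.01, adjusted p = 0.93) did not pass the threshold. Foxo6 fell, with log2 changes of −0.62 to −0.44 over the 13 alternatives. Its call was lost with DESeq2, without wild-type replicate 3 and without knockout replicate 1. Over all 9 pathway lists, 32 of 115 tested genes rose and 39 fell. That is 61.7% called, close to the 61.4% of all genes.

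**Figure D5:**
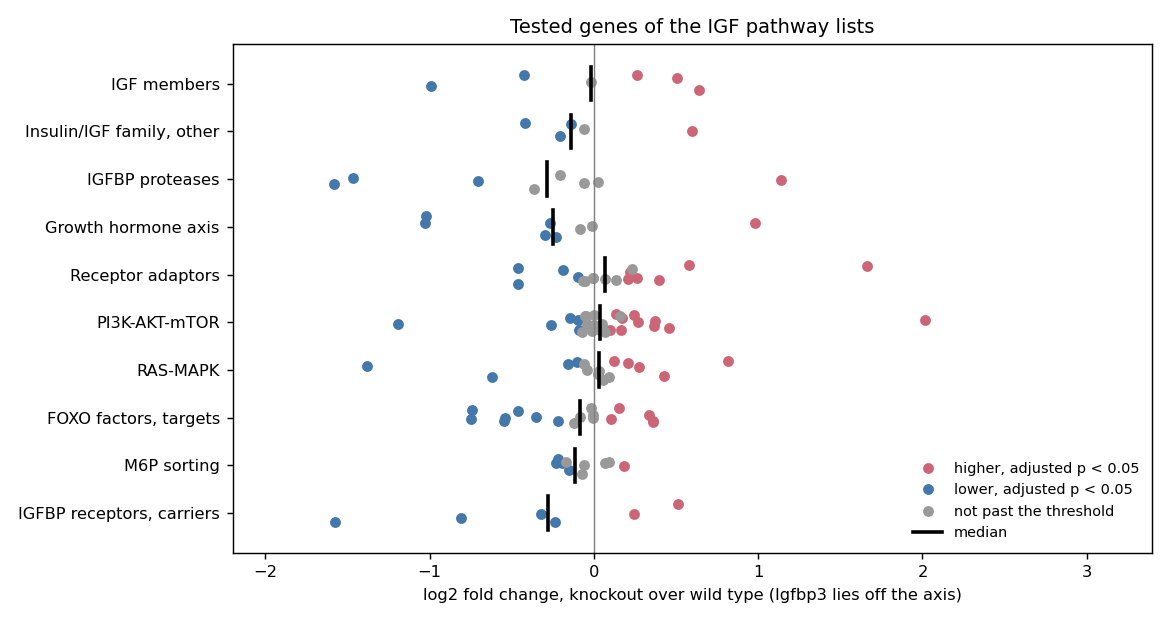
Log2 fold change (x axis, knockout over wild type) of each tested gene in the member list and 9 lists of related genes (y axis), coloured by call, with the list median as a black bar. Medians lie between −0.28 and 0.07, and each list holds both higher and lower genes. Igfbp3 is off the axis.

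The genes whose pattern over the 6 libraries was most like that of 3 members were found by the smallest Euclidean distance between log2 CPM values, each centred on its own mean, among 11049 genes. Nearest to Igfbp3 were Serpine2 (distance 1.03), at 13.3 CPM in wild type and 0.0625 in the knockout, Fbln1 (1.19), at 5.44 CPM and 0, and Rnf144a (1.57), at 2.57 CPM and 0. For these near-absent genes the distance depends on the pseudocount of 0.05 CPM. Nearest to Igfbp4 were Map2k3os (0.112), Zbtb49 (0.164) and Fam117a (0.177), all rising by 0.53 to 0.61 on the log2 scale. Nearest to Igfbp7 were Eef2, Nacc1 and Rpl11, whose log2 changes of −0.003 to −0.03 did not pass the threshold.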

How the data were processed

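Ribosomal RNA was depleted from the total RNA of 6 samples and stranded libraries were made, per the labels' protocols. The table the authors deposited holds unnormalized counts for each gene. Per the submitters' processing notes, STAR 2.6.1d, featureCounts 1.6.3 and mm10 or GRCm38 were used, without further detail. Settings for strand and multiple alignments are not stated there. A second deposited table of counts downstream of genes was not used, because its regions carry no names. Members and lists were chosen with earlier results of these data known.

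Groups and replicate numbers came from the sample titles. Within-genotype library pairs differed by more than sampling noise (chi-square per gene of 2.05 to 6.50). Tests used edgeR 4.0.16 in R 4.3.3 (quasi-likelihood F test, robust, TMM, filterByExpr at its minimum count, 10, and minimum total, 15), two-sided, adjusted by the Benjamini-Hochberg method over 12947 genes. Each SE was derived from the log2 fold change and its F value. RPKM used the exon length in the deposited table. The test was first tested on simulated data. Named genes were all members, up to 4 tested genes per list with the smallest adjusted p, family, FOXO and receptor genes needed to account for counts of 5 or fewer, the nearest neighbours, and the 3 genes nearest in pattern (mean of at least 1 CPM) to the members with the largest fall, the largest rise and the highest level per length. Other genes were named after their values were seen. Rack1 is listed as Gnb2l1. Promoter sequences are from RefSeq (GRCm38.p6), with 10 of 10 members matched by symbol, and the motif strings were chosen after the sequences were seen. A planned comparison of protein sequences was not made. Some genes of the lists are not reported here by name. SciPy 1.17.1 gave the permutation tests. As alternatives, DESeq2 1.42.0, limma-voom (limma 3.58.1), RLE scaling, a replicate block, omission of the count filter, a stricter one (1 CPM or more in 3 libraries), removal of Rn45s and removal of each library in turn were tried.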

Additional observations from a re-analysis of the deposited data

How the results depend on the processing

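All 7 tested members kept their direction and their side of the threshold under all 13 alternatives. The log2 change ranged from −1.08 to −0.94 for Igf1, 0.25 to 0.27 for Igf1r, 0.48 to 0.53 for Igf2r, 0.53 to 0.75 for Igfbp4, −0.49 to −0.39 for Igfbp6 and −0.04 to −0.01 for Igfbp7, and the fitted value of Igfbp3 from −10.43 to −7.23. With the replicate number as a block, 3 members were higher and 3 lower, and 7816 genes were called in all. It changed no call of a member. Same-numbered libraries did not deviate together (r of −0.03 in each of the 3 pairs, against 0.01 to 0.02 for other pairs). Because deviations were taken from each group mean, these values are not independent of each other. They therefore cannot decide whether the numbers pair the samples. Of the 71 called genes in the pathway lists, 14 lost their call under at least 1 alternative. With summed CPM in place of RPKM, the share of the whole binding protein pool was 4.75% for Igfbp3, 1.95% for Igfbp4 and 83.9% for Igfbp7 in wild type, and 3.25% for Igfbp4 and 89.1% for Igfbp7 in the knockout, because CPM counts long genes more. In the pool without Igfbp7 it was 29.4% for Igfbp3, 12.2% for Igfbp4 and 58.4% for Igfbp6 in wild type, against 0.201%, 29.96% and 69.4% in the knockout. Depth limits Igf2, Igfbp2 and Igfbp5, each with under 10 counts per genotype.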
